A study of Mus musculus with 9 samples.

Results

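Receptor tyrosine kinases are cell-surface receptors that carry a kinase on their inner side, and growth factors are the secreted or shed ligands that switch many of them on. Ligand binding brings receptor chains together, the kinases phosphorylate each other, and adaptor proteins then pass the signal to the RAS, PI3K and other pathways. In breast carcinoma cells these receptors are known for their part in growth, survival, movement and exchange of signals with neighbouring cells.

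The set described here holds 47 mouse genes of the 55335 genes counted, 36 receptors and 11 ligands. The members were chosen by name, as the rows whose Ensembl identifier maps to a listed symbol, and all 47 were found. RNA came from D2A1-d cells, a murine breast carcinoma line kept in culture medium with fetal bovine serum, and each group had 3 samples. The first group carried the short hairpin RNA shMed1 #2 and the second shMed1 #4, both labelled as Med1 knockdown, and the third carried a non-targeting control hairpin (NTC) and is labelled WT. All 9 samples were transduced cells of this 1 line. The labels call the samples biological replicates and do not say if each had its own transduction or dish. Here p-values rest on the variation among these samples, and that may be technical. Med1 is part of Mediator, the large assembly through which transcription factors reach RNA polymerase II. The design asks which of the receptors and ligands these cells transcribe, and how each differs between each Med1 hairpin and NTC.

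The 9 libraries held between 8123918 and 8879982 counts. Med1, the hairpins' target, measured 22.1, 25.2 and 24.7 CPM in the shMed1 #2 libraries (CPM being counts scaled by library size and TMM factor to a common total), 25.02, 26.6 and 25.5 CPM in the shMed1 #4 libraries and 85.6, 87.5 and 79.8 CPM in the NTC libraries. Its log2 fold change against NTC was -1.81 with shMed1 #2 and -1.71 with shMed1 #4, so the target is low in all 6 libraries labelled as knockdown. The line's labelled type was checked on 8 epithelial and carcinoma markers. Of these Krt18 and Krt8 were detected above the filter, while Epcam, Krt5 and Cldn4 had 0 counts in all 9 libraries and Cdh1 had 4 counts in all. The summed level of the 8 markers ran between 19.1 and 22.2 CPM with shMed1 #2, between 41.3 and 51.8 CPM with shMed1 #4 and between 56.5 and 58.3 CPM with NTC. These markers moved with the groups, and their part in the results below was not tested. In RNA from a whole culture, fewer cells of a type and less RNA per cell cannot be told apart.

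Of the 47 members, 29 had enough counts to be tested, 21 of the 36 receptors and 8 of the 11 ligands. The 18 others were at or near the floor of these libraries, where 3 counts correspond to 0.338 to 0.369 CPM. Egfr, the receptor for most ligands of the EGF family, had 5 counts summed over the 3 shMed1 #2 libraries, 5 over the shMed1 #4 libraries and 4 over the NTC libraries. Erbb3, the neuregulin receptor with little kinase activity of its own, had 5 counts with shMed1 #2, 6 with shMed1 #4 and 6 with NTC. Hgf, the ligand of Met, had 8 counts with shMed1 #2, 4 with shMed1 #4 and 12 with NTC, and Gas6, a ligand of Axl, had 0 counts with either Med1 hairpin and 1 with NTC. Igf1, a ligand of Igf1r, had 1 count with shMed1 #2, 1 with shMed1 #4 and 7 with NTC. Mertk, of the Axl family like Tyro3, had the highest sum of the 18, with 12 counts with shMed1 #2, 14 with shMed1 #4 and 12 with NTC.

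The other members below the filter had at most 8 counts over all 9 libraries. Fgfr2 had 2 counts with shMed1 #2, 3 with shMed1 #4 and 3 with NTC, and Fgfr4 had 0 with shMed1 #2, 1 with shMed1 #4 and 2 with NTC. Kit, the receptor for stem cell factor, had 2 counts with shMed1 #4 and 0 in the shMed1 #2 and NTC groups. The endothelial receptors for vascular growth factors were as low, with Kdr at 0 counts with shMed1 #2, 2 with shMed1 #4 and 1 with NTC, and Flt4 at 1 count with each Med1 hairpin and 0 with NTC. Ntrk3, a neurotrophin receptor, had 3 counts with shMed1 #2, 1 with shMed1 #4 and 0 with NTC, and Ret, the receptor of GDNF family ligands, had 3 with shMed1 #2 and 0 in the shMed1 #4 and NTC groups. Mst1r, Epha4, Epha7, Ntrk2 and Ror2 had 0 counts in all 9 libraries. With no filter on low counts, the 13 of these 18 genes with any counts were fitted as well, and edgeR's quasi-likelihood test called 0 of them with either hairpin against NTC or between the hairpins (lowest adjusted p 0.219, with 0 at an unadjusted p under 0.05). With so few counts a difference was not detectable.

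Levels of different genes were compared as CPM per kilobase of exon. Csf1, the growth factor of macrophages, led the 29 detected members at 146 ± 2.79 with shMed1 #2, 131 ± 1.60 with shMed1 #4 and 162 ± 5.84 with NTC (SD, n = 3 in each group for this and all later means). Axl, which binds Gas6, came next at 107 ± 3.25 with shMed1 #2, 103 ± 1.80 with shMed1 #4 and 144 ± 0.268 with NTC. Epha2, a receptor for ephrin-A ligands, came after them at 75.3 ± 2.49 with shMed1 #2, 64.3 ± 1.06 with shMed1 #4 and 54.4 ± 0.857 with NTC. Ryk, a Wnt-binding receptor with an inactive kinase, stood at 46.9 ± 1.38 with shMed1 #2, 44.4 ± 0.583 with shMed1 #4 and 43.7 ± 1.05 with NTC, and Ddr2, a collagen receptor, at 39.9 ± 0.676 with shMed1 #2, 35.5 ± 1.39 with shMed1 #4 and 35.8 ± 1.14 with NTC. These 5 genes kept ranks 1 to 5 in all 3 groups, and also with the longest transcript taken as the length in NTC. Their NTC libraries did not overlap between neighbours in the order.

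Below them in NTC came Met at 26.3 ± 0.687 and Ptk7 at 24.3 ± 1.38 CPM per kilobase, whose libraries overlapped, so these neighbours do not differ beyond their spread. Pdgfa, Pdgfrb and Ephb4 followed at 15.4 ± 0.288, 14.4 ± 1.25 and 14.0 ± 0.741, with overlap from Pdgfa to Pdgfrb and from Pdgfrb to Ephb4. Ereg, Ddr1, Hbegf and Fgfr1 lay between 10.6 and 11.3 CPM per kilobase in NTC, again with overlap from each to the next. Erbb2, the receptor with no known ligand of its own, was at 8.33 ± 0.0920, and Pdgfra, Tyro3 and Igf1r were at 7.79 ± 0.320, 5.88 ± 0.00792 and 5.46 ± 0.607, where Tyro3 and Igf1r overlapped. From Areg at 4.11 ± 0.556 down to Tgfa at 3.22 ± 0.0727 each gene overlapped the next in the order Areg, Ephb2, Nrg1, Insr, Ephb3 and Tgfa. Csf1r followed at 2.51 ± 0.172, and Ror1, Pdgfb, Fgfr3 and Flt1 were lowest at 1.497 ± 0.124, 0.563 ± 0.0407, 0.262 ± 0.0881 and 0.135 ± 0.0367 CPM per kilobase. Hbegf ranked 7 with shMed1 #2 and 13 with NTC, and Pdgfrb ranked 16 with shMed1 #2 and 9 with NTC. With the longest transcript as the length Hbegf ranked 10 and Pdgfrb 12 with NTC. Other genes moved too: in NTC Fgfr1 went from rank 14 to 9, Ereg from 11 to 15 and Areg from 19 to 24. Met and Ptk7 exchanged ranks 6 and 7. Ereg, Ddr1, Hbegf and Fgfr1 then ranked 15, 13, 10 and 9, so they no longer stood side by side. Below the first 5 genes, the order in NTC thus depends in part on the length used.

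**Figure D1:**
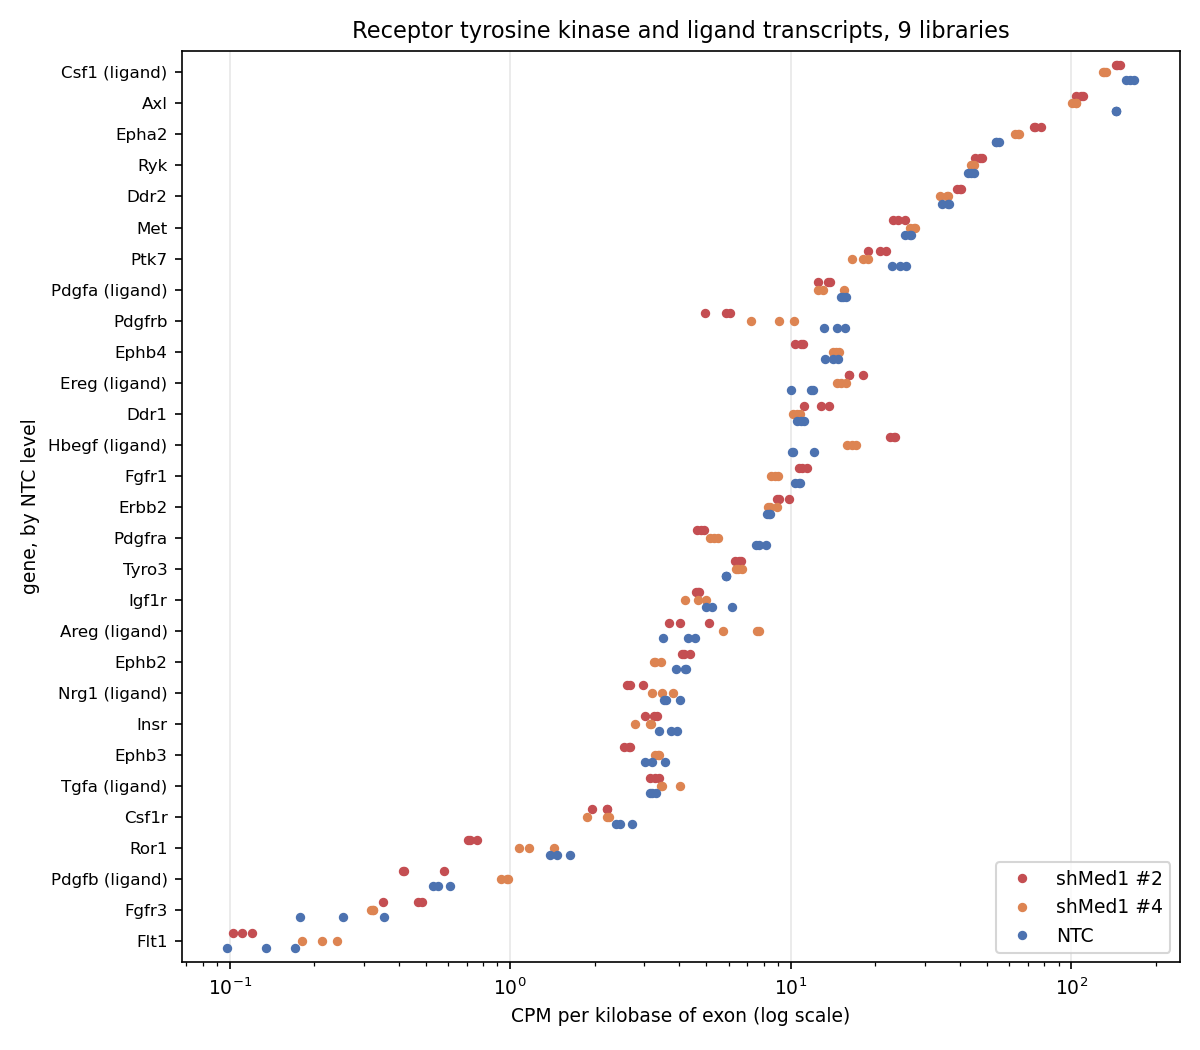
Level of each of the 29 detected members in CPM per kilobase of exon, on a log scale, with 1 point per library for shMed1 #2, shMed1 #4 and NTC and genes ordered by their NTC mean. Csf1 and Axl stand above the rest at 162 and 144 in NTC, and Flt1 is lowest at 0.135.

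Each hairpin was compared with NTC in 1 fit over all 13611 genes that passed the filter on low counts, and a gene was called where the adjusted p of edgeR's quasi-likelihood test with Benjamini-Hochberg adjustment was under 0.05. With shMed1 #2, 6 of the 29 tested members were called higher and 13 lower, where 21.8% of all tested genes were called higher and 21.9% lower. With shMed1 #4, 5 members were called higher and 9 lower, where 14.0% of all tested genes were called higher and 14.1% lower. Counting depth differs between genes: 24 of the 29 members and 9580 of the 13611 tested genes had a mean of at least 10 CPM over the 9 libraries. Of these 24 members, 17 were called with shMed1 #2 and 12 with shMed1 #4, where 50.7% of all genes at that level were called in either direction with shMed1 #2 and 33.8% with shMed1 #4. The median log2 fold change of the members was -0.15 with shMed1 #2 and -0.01 with shMed1 #4, beside -0.0035 with shMed1 #2 and 0.0009 with shMed1 #4 over all tested genes. In size, 3 members, Pdgfrb, Ror1 and Hbegf, were called with at least a 2-fold change with shMed1 #2, a class that held 4.50% of all tested genes with that hairpin. With shMed1 #4, 0 members reached a called 2-fold change. The share of all genes that did so with shMed1 #4 was not counted, so the hairpins cannot be compared on this.

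By role, of the 21 receptors tested, 4 were higher and 10 lower with shMed1 #2, and 1 was higher and 8 lower with shMed1 #4. Among the 8 ligands tested, 2 were higher and 3 lower with shMed1 #2, and 4 were higher and 1 lower with shMed1 #4. For receptors and ligands alike, the shares of all tested genes are those given above, 21.8% higher and 21.9% lower with shMed1 #2, and 14.0% higher and 14.1% lower with shMed1 #4. Higher with both hairpins were 3 members, Epha2, Hbegf and Ereg (10.3% of 29, against 10.4% of all tested genes). Lower with both were 7 members, Igf1r, Insr, Pdgfra, Pdgfrb, Axl, Ptk7 and Csf1 (24.1% of 29, against 10.1% of all tested genes), and 0 members were called in opposite directions. Both comparisons use the same 3 NTC libraries, so they are not independent of each other. The shares of 10.4% and 10.1% are over all tested genes and were not matched to the members for counting depth.

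**Figure D2:**
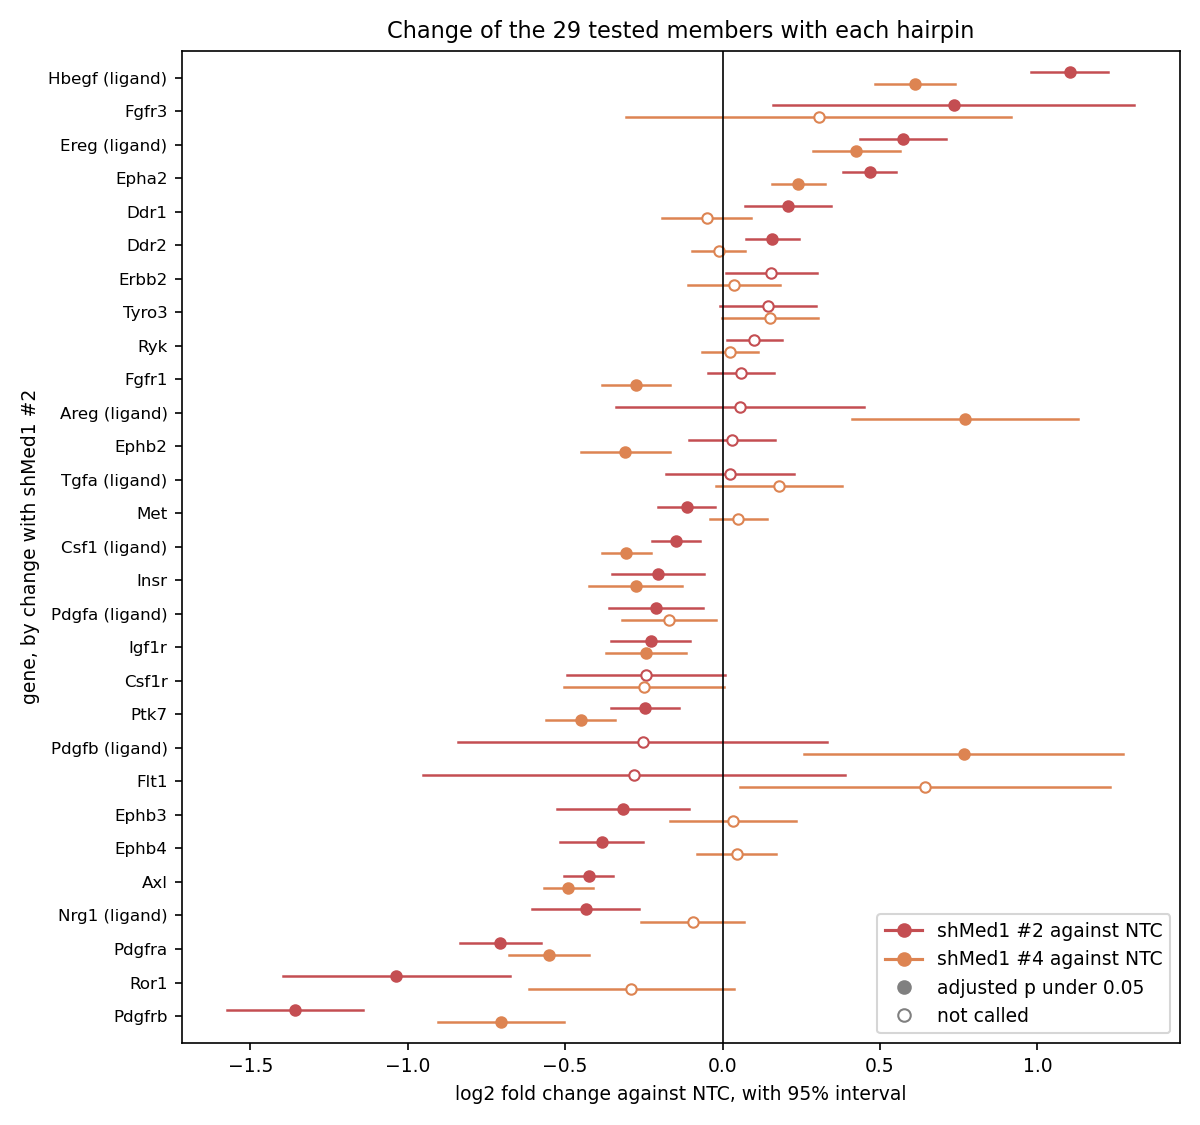
Log2 fold change of the 29 tested members with shMed1 #2 and with shMed1 #4 against NTC, with lines for the 95% interval; filled points were called and open points were not. Hbegf at 1.10 and Pdgfrb at -1.36, both with shMed1 #2, are the ends of the range.

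The promoters of the 10 members called with both hairpins were looked up in a set of RefSeq promoters (GRCm38.p6). The set used here held 6 of them and had no entry for Hbegf, Ereg, Insr and Pdgfrb. The 250 bases before the annotated start are shown for the receptor that was higher and for 3 of the lower members, so that the start regions of genes that moved in opposite directions can be read side by side. Capitals mark GGGCGG (the GC box bound by Sp1 family factors) or its reverse complement, and AGGTCA (the half-site of nuclear receptors, a class of factors known to bind MED1) or its reverse complement. Each sequence runs 5′ to 3′ on the gene's strand, for Epha2 chr4:141300971-141301220 on the plus strand, for Axl chr7:25788734-25788983 on the minus strand, for Csf1 chr3:107760470-107760719 on the minus strand and for Pdgfra chr5:75152001-75152250 on the plus strand.
Epha2: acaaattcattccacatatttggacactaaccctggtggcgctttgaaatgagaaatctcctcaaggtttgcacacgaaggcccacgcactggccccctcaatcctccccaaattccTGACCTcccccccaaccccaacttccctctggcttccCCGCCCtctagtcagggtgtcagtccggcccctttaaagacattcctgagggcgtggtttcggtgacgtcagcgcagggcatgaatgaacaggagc
Axl: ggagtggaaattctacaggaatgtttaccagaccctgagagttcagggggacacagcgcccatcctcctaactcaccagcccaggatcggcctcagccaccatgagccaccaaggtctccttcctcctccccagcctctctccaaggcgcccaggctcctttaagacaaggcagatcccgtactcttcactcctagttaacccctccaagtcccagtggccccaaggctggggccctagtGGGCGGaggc
Csf1: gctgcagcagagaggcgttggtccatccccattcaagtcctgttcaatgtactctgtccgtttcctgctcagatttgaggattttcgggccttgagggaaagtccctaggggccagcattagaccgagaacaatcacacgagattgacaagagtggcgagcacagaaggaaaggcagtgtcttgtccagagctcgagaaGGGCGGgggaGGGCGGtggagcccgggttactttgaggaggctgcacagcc
Pdgfra: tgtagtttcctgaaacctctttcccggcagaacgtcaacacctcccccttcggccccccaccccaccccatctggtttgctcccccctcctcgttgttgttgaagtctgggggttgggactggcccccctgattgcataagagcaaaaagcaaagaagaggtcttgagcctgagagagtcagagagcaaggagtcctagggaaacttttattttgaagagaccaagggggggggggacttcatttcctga
On either strand GGGCGG was found in 5 of the 6 promoters, in Epha2, Axl, Csf1, Igf1r and Ptk7, against 32.7% of the 32851 promoters in the set. AGGTCA was in 2 of the 6, Epha2 and Igf1r, against 14.0% of all promoters. TGANTCA, the AP-1 site, was in 0 of the 6 and in 6.7% of all promoters, and TATAAA, the TATA box, was in 0 of the 6 and in 12.4% of all. Pdgfra held none of the 4 motifs in this window. The 6 promoters were between 54.4% and 77.6% G or C. The shares of all promoters were not limited to genes tested here or matched for G and C content. They therefore do not show whether the 6 differ from other genes expressed in these cells. No match overlapped a match of another motif, and each match is a description of letters, not a measured binding site.

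Ligands of the EGF family are made as membrane proteins and shed by proteases, and 5 of them were among the members and all tested. With shMed1 #2, 2 were higher and 1 lower, and with shMed1 #4, 3 were higher and 0 lower. Of all tested genes, 21.8% were higher and 21.9% lower with shMed1 #2, and 14.0% higher and 14.1% lower with shMed1 #4. Hbegf (heparin-binding EGF-like growth factor, chr18:36504927-36515805, minus strand, GRCm38) was at 113, 113 and 109 CPM in shMed1 #2 libraries, at 79.6, 76.8 and 82.5 CPM in shMed1 #4 libraries and at 48.7, 58.3 and 49.3 CPM in NTC libraries. The 3 groups did not overlap, with shMed1 #2 highest. Its log2 fold change was 1.10 ± 0.0612 (SE, here and at all later log2 fold changes, adjusted p = 1.18e-27) with shMed1 #2 and 0.61 ± 0.0640 (adjusted p = 4.93e-13) with shMed1 #4. It was lower with shMed1 #4 than with shMed1 #2, by a log2 difference of -0.49 (adjusted p = 4.65e-11). Ereg (epiregulin, chr5:91074622-91093646, plus strand) was at 66.4, 66.5 and 74.6 CPM in shMed1 #2 libraries, at 64.7, 60.3 and 62.4 CPM in shMed1 #4 libraries and at 49.3, 41.3 and 48.9 CPM in NTC libraries. Every knockdown library lay above every NTC library. The log2 fold change was 0.57 ± 0.0687 (adjusted p = 3.18e-11) with shMed1 #2 and 0.42 ± 0.0698 (adjusted p = 7.43e-07) with shMed1 #4.

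Areg (amphiregulin) lies beside Ereg on chromosome 5 and was called with shMed1 #4, at 8.52 ± 1.34 CPM, against 5.00 ± 0.676 CPM with NTC (log2 fold change 0.77 ± 0.180, adjusted p = 0.000472). With shMed1 #2 it was at 5.19 ± 0.913 CPM and was not called (log2 fold change 0.05, 95% interval -0.34 to 0.45), and shMed1 #4 was above shMed1 #2 by 0.71 on the log2 scale (adjusted p = 0.00113). Nrg1 (neuregulin, a ligand of Erbb3) was lower with shMed1 #2, at 28.5 ± 2.01 CPM against 38.5 ± 2.89 CPM with NTC (log2 fold change -0.43 ± 0.0853, adjusted p = 1.46e-05), and was not called with shMed1 #4 at 36.1 ± 3.16 CPM. The difference between shMed1 #4 and shMed1 #2 was 0.34 (adjusted p = 0.00140). Tgfa (transforming growth factor alpha) was not called with either hairpin, with log2 fold changes of 0.02 (95% interval -0.18 to 0.23) with shMed1 #2 and 0.18 (95% interval -0.02 to 0.38) with shMed1 #4. Of the 3 ERBB receptors listed, Erbb2 passed the filter, at 48.3 ± 2.69 CPM with shMed1 #2, 44.5 ± 1.73 CPM with shMed1 #4 and 43.4 ± 0.479 CPM with NTC. It was not called, and the 95% interval of its log2 fold change was 0.01 to 0.30 with shMed1 #2 (adjusted p = 0.0735) and -0.11 to 0.18 with shMed1 #4.

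Both receptors for platelet-derived growth factor fell with both hairpins. Pdgfrb (chr18:61045150-61085061, plus strand), which binds mainly the B chain, was at 33.2, 27.2 and 32.3 CPM in shMed1 #2 libraries, at 49.8, 39.6 and 56.1 CPM in shMed1 #4 libraries and at 80.2, 71.8 and 85.3 CPM in NTC libraries. The groups did not overlap, and shMed1 #2 was lowest. Its log2 fold change was -1.36 ± 0.103 (adjusted p = 7.33e-10) with shMed1 #2 and -0.70 ± 0.0958 (adjusted p = 8.27e-06) with shMed1 #4, and the difference between shMed1 #4 and shMed1 #2 was 0.65 (adjusted p = 0.000134). Pdgfra (chr5:75152292-75198215, plus strand), which binds both chains, was at 47.8, 46.6 and 49.2 CPM in shMed1 #2 libraries, at 51.4, 55.4 and 53.2 CPM in shMed1 #4 libraries and at 75.4, 77.2 and 81.6 CPM in NTC libraries. All 6 knockdown libraries lay below the NTC libraries. Pdgfra fell by 0.71 ± 0.0644 on the log2 scale (adjusted p = 4.54e-16) with shMed1 #2 and by 0.55 ± 0.0635 (adjusted p = 2.02e-11) with shMed1 #4, while the difference between shMed1 #4 and shMed1 #2 was not called (0.16, 95% interval 0.02 to 0.29, adjusted p = 0.0821, and 0.0417 with library size alone as the scale).

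Of their ligands, Pdgfa (A chain) was at 41.5 ± 2.24 CPM with shMed1 #2, 42.7 ± 5.04 CPM with shMed1 #4 and 48.1 ± 0.897 CPM with NTC, and was called lower with shMed1 #2 (log2 fold change -0.21 ± 0.0757, adjusted p = 0.0173) but not with shMed1 #4 (-0.17 ± 0.0755, adjusted p = 0.0828). The Pdgfa call with shMed1 #2 was lost with DESeq2 (adjusted p = 0.0652), without NTC replicate 2 (0.0617) and without shMed1 #2 replicate 3 (0.112), and Pdgfa was called with shMed1 #4 with library size alone as the scale (0.0447) and without shMed1 #4 replicate 3 (0.00724). Exons of the antisense gene 6330403L08Rik cover 26.1% of the Pdgfa exon length with 1022 counts in all against 3381 for Pdgfa, and without a stated strand setting the reads there cannot be told apart. Pdgfb (B chain) was scarce, at 1.96 ± 0.392 CPM with shMed1 #2, 3.99 ± 0.124 CPM with shMed1 #4 and 2.34 ± 0.169 CPM with NTC. It was not called with shMed1 #2 (-0.25 ± 0.294, adjusted p = 0.514) and rose with shMed1 #4 (0.77 ± 0.255, adjusted p = 0.0164), a call lost with DESeq2 (adjusted p = 0.0769) and without NTC replicate 3 (0.0598), and it was above shMed1 #2 by 1.02 (adjusted p = 0.00170).

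Pdgf receptors are also markers of fibroblasts and pericytes, so 9 other markers of those cells were read beside them. Dcn and Rgs5 had 1 count each in all 9 libraries, and Lum and Thy1 had 0. Acta2, Col1a1 and Col1a2 were above the filter. Their summed level with the rest of the list was 211 to 229 CPM with shMed1 #2, 304 to 365 CPM with shMed1 #4 and 247 to 265 CPM with NTC, nearly all of it Acta2. Col1a1 was at 5.89 ± 0.788 CPM with shMed1 #2, 15.2 ± 0.877 CPM with shMed1 #4 and 18.03 ± 2.55 CPM with NTC. Of the 3 markers tested, 0 were called higher and 3 lower with shMed1 #2, where 21.8% of all tested genes were higher and 21.9% lower. With shMed1 #4, 1 was called higher and 0 lower, where 14.0% of all tested genes were higher and 14.1% lower. The part of these marker genes in the Pdgfra and Pdgfrb results was not tested.

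Csf1 (chr3:107741048-107760469, minus strand) was at 769, 788 and 759 CPM in shMed1 #2 libraries, at 686, 688 and 701 CPM in shMed1 #4 libraries and at 855, 886 and 824 CPM in NTC libraries. The groups did not overlap, with shMed1 #4 lowest and NTC highest. The falls were small but precise, by 0.15 ± 0.0387 on the log2 scale (adjusted p = 0.00104) with shMed1 #2 and by 0.31 ± 0.0389 (adjusted p = 5.53e-10) with shMed1 #4, and the difference between shMed1 #4 and shMed1 #2 was -0.16 (adjusted p = 0.00100). Its receptor Csf1r, which marks macrophages, was at 12.8, 12.8 and 11.3 CPM in shMed1 #2 libraries, at 12.8, 10.8 and 13.0 CPM in shMed1 #4 libraries and at 14.2, 13.7 and 15.6 CPM in NTC libraries. All 6 knockdown libraries lay below NTC, yet Csf1r was not called, at -0.24 (95% interval -0.49 to 0.01, adjusted p = 0.113) with shMed1 #2 and -0.25 (95% interval -0.50 to 0.00, adjusted p = 0.140) with shMed1 #4. Exons of Hmgxb3 on the other strand cover 15.1% of the Csf1r exon length. Hmgxb3 had 4545 counts in all against 997 for Csf1r. Without a stated strand setting, it is not known how reads of the shared bases were counted. Csf1r also begins 15536 bases after the end of Pdgfrb on the same strand. Of 10 leukocyte markers, 2 passed the filter and 4 had 0 counts in all 9 libraries, Adgre1, Itgam and Cd3e among them. Ptprc had 5 counts in all. Of the 2 tested, 1 was called lower with shMed1 #2 and 1 with shMed1 #4, and 0 were called higher with either. Among all tested genes, 21.9% were called lower with shMed1 #2 and 14.1% with shMed1 #4. The summed level of the 10 was 44.6 to 48.3 CPM with shMed1 #2, 55.5 to 60.9 CPM with shMed1 #4 and 61.1 to 72.7 CPM with NTC, and most of it was Cd14.

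Of the Axl family, Axl and Tyro3 were tested. Axl (chr7:25757273-25788705, minus strand) was at 555, 522 and 543 CPM in shMed1 #2 libraries, at 521, 506 and 522 CPM in shMed1 #4 libraries and at 724, 725 and 727 CPM in NTC libraries. All 6 knockdown libraries were lower than NTC, and the NTC libraries were within 3 CPM of each other. Axl fell by 0.43 ± 0.0391 on the log2 scale (adjusted p = 6.93e-16) with shMed1 #2 and by 0.49 ± 0.0393 (adjusted p = 2.94e-18) with shMed1 #4. The 95% interval of the difference between shMed1 #4 and shMed1 #2 was -0.14 to 0.01, and it was not called (adjusted p = 0.237). Tyro3, which also binds Gas6, was at 40.3 ± 0.965 CPM with shMed1 #2, 40.5 ± 0.984 CPM with shMed1 #4 and 36.5 ± 0.0491 CPM with NTC and was not called (0.14 ± 0.0767, adjusted p = 0.122, with shMed1 #2 and 0.15 ± 0.0769, adjusted p = 0.141, with shMed1 #4).

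The insulin family receptors were both lower with both hairpins. Igf1r (chr7:67952827-68233668, plus strand), the receptor for insulin-like growth factors, was at 79.1, 78.5 and 77.2 CPM in shMed1 #2 libraries, at 70.2, 83.9 and 78.5 CPM in shMed1 #4 libraries and at 88.0, 103 and 83.9 CPM in NTC libraries. The lowest NTC library was only just above the highest knockdown library. Igf1r fell by 0.23 ± 0.0630 (adjusted p = 0.00212) with shMed1 #2 and by 0.24 ± 0.0633 (adjusted p = 0.00203) with shMed1 #4. Both falls rest on NTC replicate 2, the library at 103 CPM: without it the log2 fold change was -0.13 (adjusted p = 0.109) with shMed1 #2 and -0.15 (adjusted p = 0.103) with shMed1 #4, neither of them called, and the call with shMed1 #4 was also lost without shMed1 #4 replicate 1 (0.0525). Insr (insulin receptor, chr8:3122061-3279617, minus strand) was at 41.4, 45.7 and 44.6 CPM in shMed1 #2 libraries, at 43.8, 38.3 and 43.4 CPM in shMed1 #4 libraries and at 46.5, 54.0 and 51.4 CPM in NTC libraries. All 6 knockdown libraries lay below all NTC libraries. The log2 fold change was -0.21 ± 0.0736 (adjusted p = 0.0171) with shMed1 #2 and -0.28 ± 0.0743 (adjusted p = 0.00247) with shMed1 #4. The Insr call with shMed1 #2 was lost with DESeq2 (adjusted p = 0.0641), without NTC replicate 2 (0.128) or 3 (0.0543), and without shMed1 #2 replicate 1 (0.106).

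Ephrin receptors bind ligands on neighbouring cells, and 4 of the 6 listed were tested. Epha2 (chr4:141301240-141329384, plus strand) was the receptor that rose with both hairpins, at 365, 346 and 344 CPM in shMed1 #2 libraries, at 303, 295 and 304 CPM in shMed1 #4 libraries and at 259, 251 and 253 CPM in NTC libraries. The 3 groups did not overlap. The log2 fold change was 0.47 ± 0.0423 (adjusted p = 2.87e-16) with shMed1 #2 and 0.24 ± 0.0427 (adjusted p = 3.73e-06) with shMed1 #4, and shMed1 #4 was below shMed1 #2 by a log2 difference of -0.23 (adjusted p = 1.04e-05). The EphB receptors, which bind ephrin-B ligands, split by hairpin. Ephb4 was at 49.9 ± 1.78 CPM with shMed1 #2, 67.3 ± 1.68 CPM with shMed1 #4 and 65.1 ± 3.44 CPM with NTC, and fell by 0.38 ± 0.0658 on the log2 scale with shMed1 #2 (adjusted p = 8.82e-07). Ephb3 was at 17.4 ± 0.415 CPM with shMed1 #2, 22.2 ± 0.364 CPM with shMed1 #4 and 21.7 ± 1.89 CPM with NTC, and fell by 0.32 ± 0.105 with shMed1 #2 (adjusted p = 0.0101), a call lost without NTC replicate 3 (0.0919). Ephb2 was at 53.0 ± 1.80 CPM with shMed1 #2, 41.9 ± 1.31 CPM with shMed1 #4 and 51.9 ± 2.31 CPM with NTC, and fell by 0.31 ± 0.0713 with shMed1 #4 (adjusted p = 0.000375). All 4 ephrin receptors were called between shMed1 #4 and shMed1 #2, with Ephb3 and Ephb4 higher and Ephb2 and Epha2 lower with shMed1 #4. Of all tested genes, 12.9% were called higher and 13.1% lower in that comparison.

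**Figure D3:**
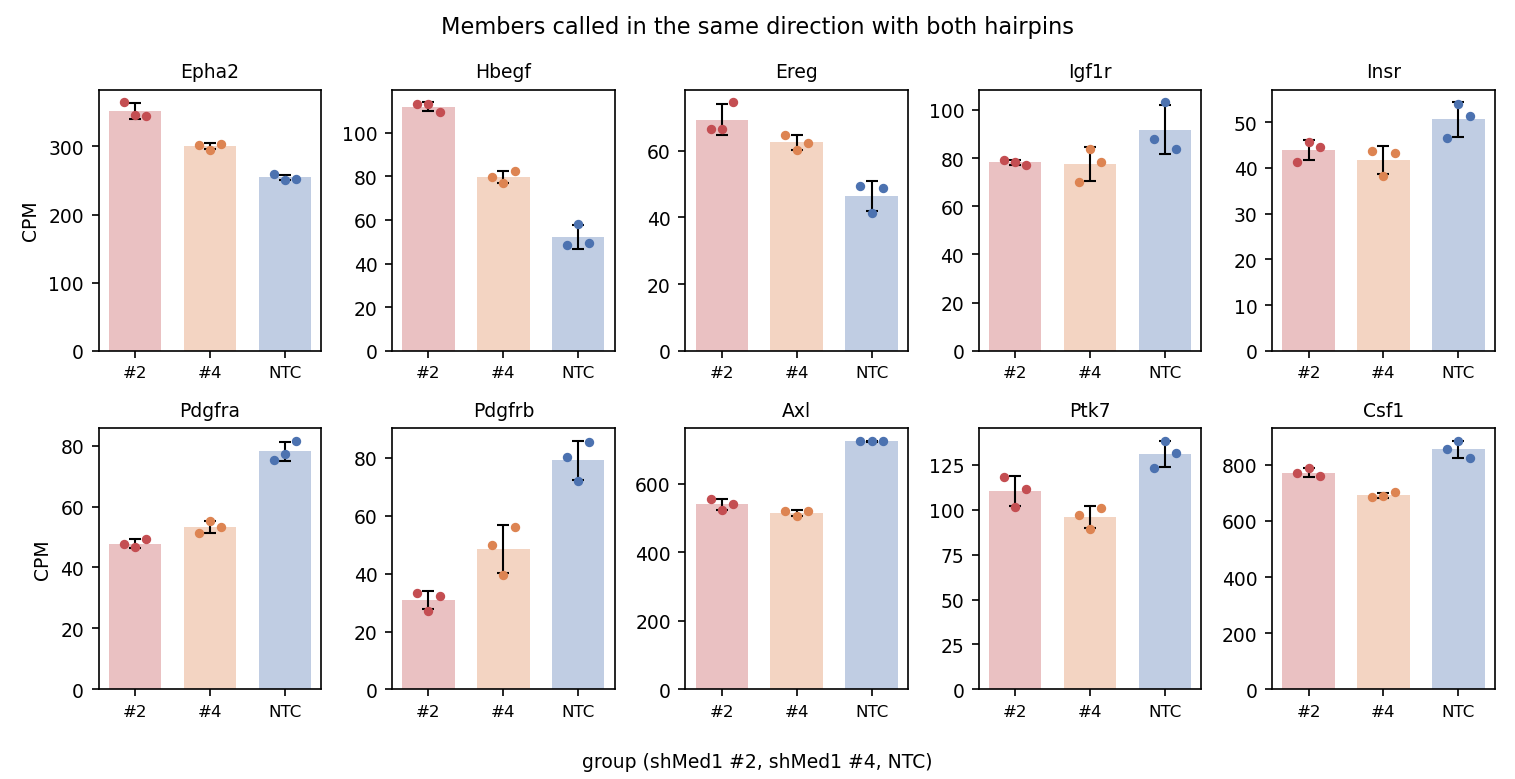
CPM of the 10 members called in the same direction with both hairpins; points are libraries, bars are means and lines are the SD (n = 3) for shMed1 #2, shMed1 #4 and NTC. Epha2, Hbegf and Ereg are higher in the knockdown libraries and the 7 others are lower, with Igf1r closest to overlap.

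Of the receptors with Wnt-binding or pseudokinase roles, Ptk7 was lower with both hairpins. Ptk7 (chr17:46564471-46629504, minus strand), a pseudokinase of planar polarity signalling, was at 118, 101 and 112 CPM in shMed1 #2 libraries, at 97.1, 89.3 and 101 CPM in shMed1 #4 libraries and at 123, 138 and 132 CPM in NTC libraries. No knockdown library reached the NTC libraries. Its log2 fold change was -0.25 ± 0.0542 (adjusted p = 0.000104) with shMed1 #2 and -0.45 ± 0.0553 (adjusted p = 2.81e-10) with shMed1 #4. The difference of -0.20 between shMed1 #4 and shMed1 #2 (adjusted p = 0.00376) was not called without shMed1 #2 replicate 1 (0.0571). Ror1, a receptor for Wnt5a, was at 4.37, 4.06 and 4.15 CPM in shMed1 #2 libraries, at 6.17, 6.74 and 8.23 CPM in shMed1 #4 libraries and at 8.48, 9.40 and 7.99 CPM in NTC libraries. The shMed1 #2 libraries lay below all others, while shMed1 #4 and NTC overlapped. Ror1 fell by 1.04 ± 0.181 (adjusted p = 1.35e-06) with shMed1 #2, was not called with shMed1 #4 (-0.29, 95% interval -0.61 to 0.04) and was higher with shMed1 #4 than with shMed1 #2 by 0.75 (adjusted p = 0.00130). Ryk was not called with shMed1 #2 (0.10 ± 0.0444, adjusted p = 0.0570) or shMed1 #4 (0.02 ± 0.0447); with shMed1 #2 it was called without NTC replicate 3 (0.0495), without shMed1 #2 replicate 3 (0.0397) and without shMed1 #4 replicate 2 (0.0480) or 3 (0.0424).

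Collagen receptors were higher with shMed1 #2. Ddr2 was at 369.9 ± 6.26 CPM with shMed1 #2, 329 ± 12.9 CPM with shMed1 #4 and 331 ± 10.5 CPM with NTC, and rose by 0.16 ± 0.0419 with shMed1 #2 (adjusted p = 0.00117). Ddr1 was at 59.9 ± 6.05 CPM with shMed1 #2, 50.1 ± 1.54 CPM with shMed1 #4 and 51.9 ± 1.55 CPM with NTC, and rose by 0.21 ± 0.0689 with shMed1 #2 (adjusted p = 0.0103). That Ddr1 call was lost with library size alone as the scale (adjusted p = 0.0547), without NTC replicate 2 (0.0531) and without shMed1 #2 replicate 1 (0.128). Neither collagen receptor was called with shMed1 #4 against NTC, and both were lower with shMed1 #4 than with shMed1 #2, by -0.17 for Ddr2 (adjusted p = 0.000968) and -0.26 for Ddr1 (adjusted p = 0.00281). Without shMed1 #2 replicate 1 the last difference was not called (0.0568).

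Among the receptors for fibroblast growth factors, Fgfr1 was the abundant one. It was at 109 ± 3.67 CPM with shMed1 #2, 86.6 ± 2.51 CPM with shMed1 #4 and 105 ± 2.31 CPM with NTC, and fell by 0.27 ± 0.0543 with shMed1 #4 (adjusted p = 3.50e-05). Fgfr1 was not called with shMed1 #2 (0.06, 95% interval -0.05 to 0.16), and the difference between shMed1 #4 and shMed1 #2 was -0.33 (adjusted p = 6.70e-07). Fgfr3 was scarce, at 3.12 ± 0.512 CPM with shMed1 #2, 2.31 ± 0.0215 CPM with shMed1 #4 and 1.87 ± 0.630 CPM with NTC. The shMed1 #2 and NTC libraries of Fgfr3 overlapped, and its call with shMed1 #2 (0.73 ± 0.288, adjusted p = 0.0314) was lost with no filter on low counts (0.0555), with DESeq2 (0.101), without NTC replicate 1 (0.0733) or 3 (0.193), and without shMed1 #2 replicate 2 (0.0884) or 3 (0.103). Exons of G630022F23Rik on the other strand, with 5 counts in all, cover 13.9% of the Fgfr3 exon length.

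Met, the receptor for hepatocyte growth factor, was at 187 ± 9.24 CPM with shMed1 #2, 209 ± 3.68 CPM with shMed1 #4 and 202 ± 5.27 CPM with NTC. It was called lower with shMed1 #2 (-0.11 ± 0.0455, adjusted p = 0.0352), with overlap between the groups. That call was lost with no filter on low counts (0.0811), with DESeq2 (0.0758), without NTC replicate 1 (0.0902) or 3 (0.118), and without shMed1 #2 replicate 1 (0.0895) or 2 (0.233). The difference between shMed1 #4 and shMed1 #2 was 0.16 (adjusted p = 0.00372), and 0.13 without shMed1 #2 replicate 2 (0.0623). Flt1, a receptor for vascular growth factors, was at 1.501 ± 0.121 CPM with shMed1 #2, 2.86 ± 0.402 CPM with shMed1 #4 and 1.82 ± 0.495 CPM with NTC and was not called against NTC. It was higher with shMed1 #4 than with shMed1 #2 by 0.92 (adjusted p = 0.0172), a call lost with DESeq2 (0.0806), without shMed1 #2 replicate 3 (0.0623) and without shMed1 #4 replicate 3 (0.0806). The 8 endothelial markers were near the floor, with a summed level of 1.15 to 2.299 CPM with shMed1 #2, 0.931 to 1.44 CPM with shMed1 #4 and 1.09 to 1.94 CPM with NTC.

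**Figure D4:**
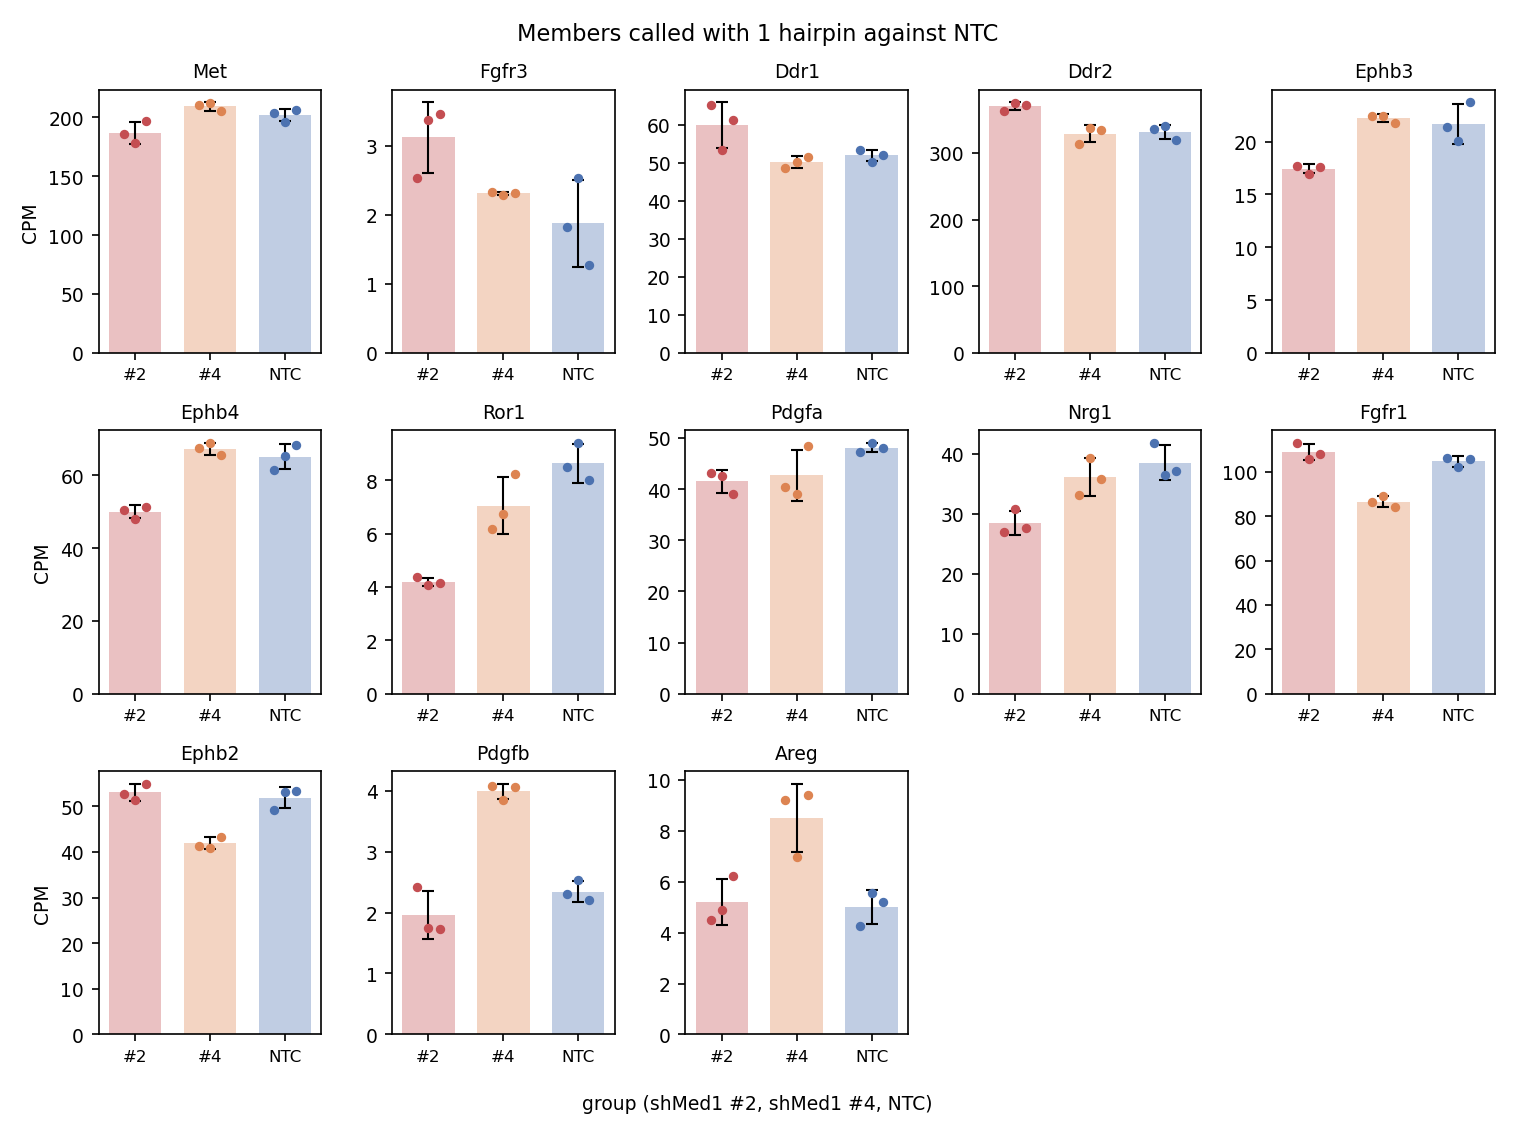
CPM of the 13 members called with 1 hairpin against NTC; points are libraries, bars are means and lines are the SD (n = 3) for shMed1 #2, shMed1 #4 and NTC. Ror1, Ephb4 and Nrg1 are lowest with shMed1 #2, and Areg and Pdgfb are highest with shMed1 #4.

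The hairpins were also compared with each other. Of the 29 members, 9 were called higher and 8 lower with shMed1 #4 than with shMed1 #2, where 12.9% of all tested genes were called higher and 13.1% lower. Pdgfrb, Ror1, Met, Ephb3, Ephb4, Nrg1, Areg, Pdgfb and Flt1 were the 9 that were higher with shMed1 #4. Hbegf, Epha2, Ptk7, Csf1, Fgfr1, Ephb2, Ddr1 and Ddr2 were the 8 that were lower. Med1 itself was not called between the hairpins, with a log2 difference of 0.10 (95% interval -0.08 to 0.28).

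Other genes of receptor signalling were read from 5 lists. Of 22 other receptor tyrosine kinases, 4 passed the filter, and 1 was higher and 1 lower with shMed1 #2 and 0 higher and 1 lower with shMed1 #4. The shares of all tested genes given above apply to each list: 21.8% higher and 21.9% lower with shMed1 #2, and 14.0% higher and 14.1% lower with shMed1 #4. Ephb6, a kinase-dead ephrin receptor, was lower with both, at 2.16 ± 0.376 CPM with shMed1 #2, 5.92 ± 0.590 CPM with shMed1 #4 and 9.23 ± 1.65 CPM with NTC. Its call with shMed1 #4 was lost without NTC replicate 3 (adjusted p = 0.0502). Of 46 other ligands, 26 were tested, and 4 were higher and 9 lower with shMed1 #2 and 5 higher and 7 lower with shMed1 #4 (median log2 fold changes -0.17 with shMed1 #2 and -0.10 with shMed1 #4, beside the values over all genes given above). At a mean of at least 10 CPM, 8 of 14 of these ligands were called with shMed1 #2 and 9 of 14 with shMed1 #4, beside 50.7% of all genes at that level with shMed1 #2 and 33.8% with shMed1 #4. Angpt1, the angiopoietin that activates Tie2, was at 0.848 ± 0.410 CPM with shMed1 #2, 2.98 ± 0.711 CPM with shMed1 #4 and 4.92 ± 0.873 CPM with NTC. Artn, a ligand of the Ret system, was at 9.20 ± 0.180 CPM with shMed1 #2, 14.4 ± 0.117 CPM with shMed1 #4 and 26.3 ± 1.94 CPM with NTC. Pgf, the placental growth factor that binds Flt1, was at 29.5 ± 1.86 CPM with shMed1 #2, 25.7 ± 2.65 CPM with shMed1 #4 and 15.7 ± 0.969 CPM with NTC, and Bdnf, a neurotrophin, at 12.9 ± 3.07 CPM with shMed1 #2, 9.19 ± 1.53 CPM with shMed1 #4 and 6.50 ± 0.771 CPM with NTC. All 4 were called with both hairpins, Angpt1 and Artn lower and Pgf and Bdnf higher. With shMed1 #4 the Angpt1 call was lost with DESeq2 (0.0939), without NTC replicate 1 (0.103) or 3 (0.0540) and without shMed1 #4 replicate 1 (0.127), and the Bdnf call with DESeq2 (0.0785), without NTC replicate 2 (0.121) and without shMed1 #4 replicate 1 (0.188).

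Coreceptors, shedding proteases and IGF binding proteins shape how much ligand reaches a receptor. Of 23 such genes 17 were tested, and 4 were higher and 10 lower with shMed1 #2 and 6 higher and 9 lower with shMed1 #4 (median log2 fold changes -0.27 with shMed1 #2 and -0.14 with shMed1 #4). Of the 15 at a mean of at least 10 CPM, 12 were called with shMed1 #2 and 13 with shMed1 #4, beside the same 50.7% with shMed1 #2 and 33.8% with shMed1 #4 of all genes. Gfra2, a coreceptor of Ret for neurturin, was at 0.654 ± 0.291 CPM with shMed1 #2, 0.898 ± 0.637 CPM with shMed1 #4 and 7.86 ± 1.07 CPM with NTC. It fell by 3.56 ± 0.305 on the log2 scale with shMed1 #2 and by 3.10 ± 0.286 with shMed1 #4, from 17 counts summed over the shMed1 #2 libraries, 23 over the shMed1 #4 libraries and 198 over the NTC libraries. The binding proteins Igfbp6 and Igfbp7 fell as well, Igfbp6 by 1.79 ± 0.149 with shMed1 #2 and by 1.15 ± 0.137 with shMed1 #4, and Igfbp7 by 1.61 ± 0.227 with shMed1 #2 and by 1.31 ± 0.218 with shMed1 #4. Igf2r, which clears IGF2 from the surface, fell by 0.61 ± 0.0920 with shMed1 #2 and by 0.91 ± 0.0957 with shMed1 #4.

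Downstream, adaptors, PI3K subunits and RAS proteins were nearly all tested, 28 of 30, and 11 were higher and 7 lower with shMed1 #2 and 7 higher and 5 lower with shMed1 #4 (median log2 fold changes 0.06 with shMed1 #2 and 0.02 with shMed1 #4). Of the 26 at a mean of at least 10 CPM, 17 were called with shMed1 #2 and 12 with shMed1 #4, where the share of all genes was 50.7% with shMed1 #2 and 33.8% with shMed1 #4. Pik3r1, a regulatory subunit of PI3K, was at 50.9 ± 0.953 CPM with shMed1 #2, 47.5 ± 2.62 CPM with shMed1 #4 and 80.7 ± 3.16 CPM with NTC, and fell by 0.67 ± 0.0638 with shMed1 #2 and by 0.76 ± 0.0647 with shMed1 #4. Pik3r3, another regulatory subunit, rose by 0.42 ± 0.138 with shMed1 #2, a call lost without shMed1 #2 replicate 3 (adjusted p = 0.0546), and by 0.82 ± 0.132 with shMed1 #4. Pik3r2, named here after its values were seen, is the remaining regulatory subunit on the list and fell by 0.26 ± 0.0447 with shMed1 #2 and by 0.23 ± 0.0447 with shMed1 #4. The RAS relatives Rras2 and Rras rose with both hairpins, Rras2 by 0.53 ± 0.0584 with shMed1 #2 and 0.30 ± 0.0597 with shMed1 #4, and Rras by 0.28 ± 0.0753 with shMed1 #2 and 0.27 ± 0.0756 with shMed1 #4.

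All 23 negative regulators of receptor signalling were tested, and 6 were higher and 6 lower with shMed1 #2 and 4 higher and 4 lower with shMed1 #4 (median log2 fold changes 0.04 with shMed1 #2 and 0.02 with shMed1 #4). Of the 20 at a mean of at least 10 CPM, 10 were called with shMed1 #2 and 6 with shMed1 #4, close to the 50.7% with shMed1 #2 and 33.8% with shMed1 #4 of all genes. Spry1, a Sprouty gene whose product restrains RAS signalling, was at 0.231 ± 0.115 CPM with shMed1 #2, 0.859 ± 0.230 CPM with shMed1 #4 and 3.93 ± 0.625 CPM with NTC, lower with both hairpins, and its 3 shMed1 #2 libraries held 6 counts together. Spry4 was at 7.85 ± 1.09 CPM with shMed1 #2, 7.10 ± 0.731 CPM with shMed1 #4 and 5.13 ± 0.282 CPM with NTC. Spry4 was higher with shMed1 #2 (0.61 ± 0.177, adjusted p = 0.00295) and with shMed1 #4 (0.47 ± 0.181, adjusted p = 0.0431). The Spry4 call with shMed1 #4 was lost without NTC replicate 1 (0.0983), 2 (0.0640) or 3 (0.126), without shMed1 #4 replicate 2 (0.143) or 3 (0.0938), with DESeq2 (0.130), with upper quartile scaling (0.0522), with library size alone (0.0583) and with no filter on low counts (0.0827). Spry2, named here after its values were seen, was not called with shMed1 #2 (0.04, 95% interval -0.19 to 0.26) or with shMed1 #4 (-0.10, 95% interval -0.33 to 0.13). Cblb, a ubiquitin ligase that sends active receptors to degradation, fell by 0.23 ± 0.0770 with shMed1 #2, a call lost without NTC replicate 2 (adjusted p = 0.0822), and by 0.36 ± 0.0784 with shMed1 #4. Ptpn12, a tyrosine phosphatase, rose by 0.32 ± 0.0503 with shMed1 #2 and by 0.25 ± 0.0507 with shMed1 #4.

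**Figure D5:**
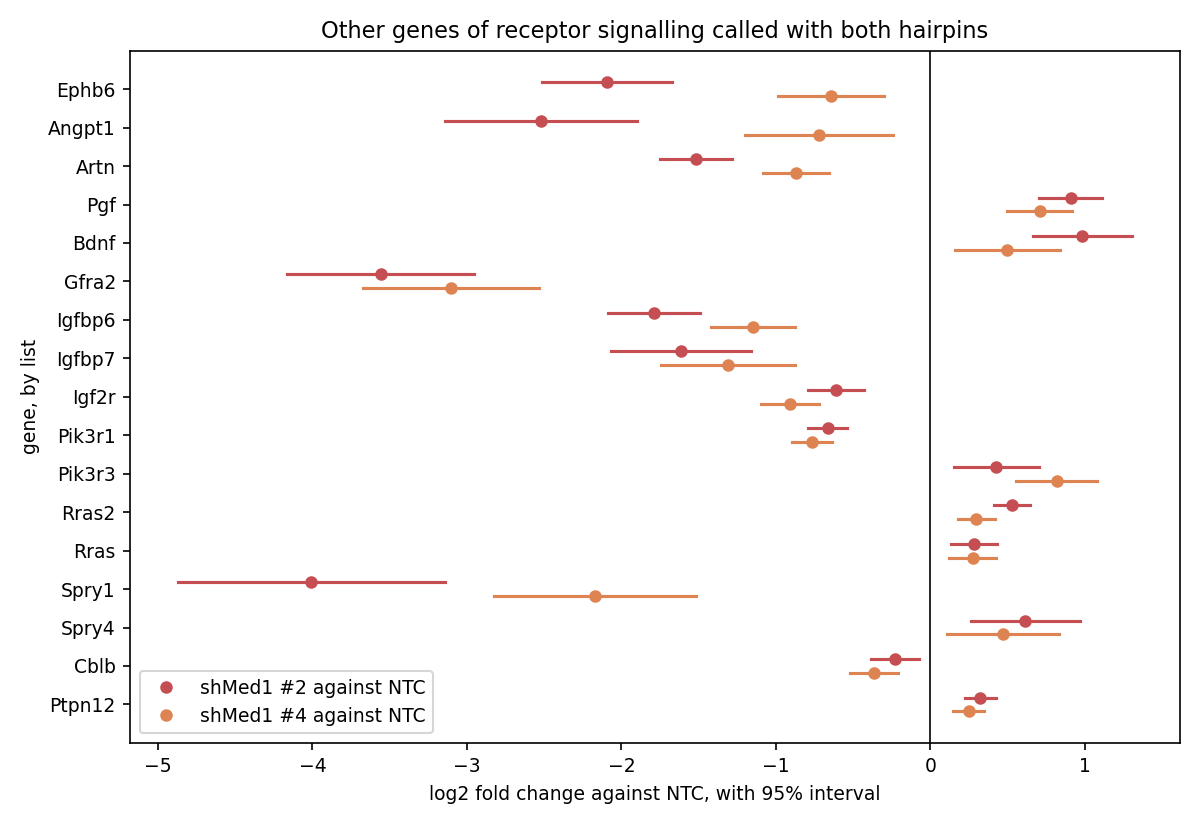
Log2 fold change of the 17 genes named from the 5 lists, with shMed1 #2 and with shMed1 #4 against NTC; lines are 95% intervals. Spry1 and Gfra2 lie farthest to the left, at -4.01 and -3.56 with shMed1 #2, and Bdnf and Pgf are at 0.98 and 0.91.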

How the data were processed

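Total RNA of 9 samples was sequenced on a BGISEQ-500, per the labels. The authors deposited raw counts of reads per gene, 1 table a sample, made with STAR and HTSeq on GRCm38 (mm10), per the submitters' processing notes. Versions, the annotation release and any strand option: not given in the sources used here. The tables hold 55335 genes and 0 rows that name no gene. GENCODE M21 matched 54587 identifiers with their version and 55154 without it. Counts were fitted in R 4.3.3 with edgeR 4.0.16 (filterByExpr, TMM scaling, robust quasi-likelihood test, group means of all 9 samples), with Benjamini-Hochberg adjustment over all 13611 genes kept and calls at an adjusted p under 0.05. CPM are counts over the library size times the TMM factor, scaled to a common total, and levels are divided by the summed exon length. The steps were tested on simulated data. Alternatives were other scalings and filters, DESeq2 1.42.0, a replicate block and leaving out each library. Libraries within a group varied beyond counting error (chi-square over degrees of freedom 1.51 to 2.40). Members and lists were chosen with earlier results of these data known. By rule, values per library are given for members called alike with both hairpins, or with 1 hairpin and at least 2-fold (those of Csf1r are given outside this rule, beside its ligand), and up to 4 genes a list are named, those called alike with both hairpins by mean fold change. Motifs, overlaps and added filters were chosen after seeing data. Figures were drawn with matplotlib 3.10.9.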

Additional observations from a re-analysis of the deposited data

Results flagged for a closer look

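Of the tested members, 9 had log2 fold changes of opposite sign with shMed1 #2 and shMed1 #4 against NTC together with a called difference between shMed1 #4 and shMed1 #2 (edgeR, adjusted p under 0.05). The fold changes themselves were called with at most 1 hairpin. Of all tested genes, 12.9% were called higher and 13.1% lower with shMed1 #4 than with shMed1 #2. The share of all genes that meets both conditions was not counted, so the 9 members cannot be set against it. For these 9 members, the log2 difference, shMed1 #4 over shMed1 #2, was 0.16 for Met, 0.35 for Ephb3, 0.43 for Ephb4, 0.92 for Flt1 and 1.02 for Pdgfb. It was -0.33 for Fgfr1, -0.26 for Ddr1, -0.17 for Ddr2 and -0.34 for Ephb2. No group has 4 or more samples, so single samples were not tested as outliers.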

How the results depend on the processing

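The 1644 values of single members under an alternative split into 1603 with the same call, 34 that lost a call and 7 that gained one. Of the values called in the main fit or under the alternative, 0 changed sign. Changes of sign in values called in neither were not counted. The changes of call are given with their genes in the results. The fold changes of Igf1r without NTC replicate 2 were the called values of members against NTC that moved by over 1.5 times. Counts of members moved by less than 1.5 times under every alternative run. Without 1 library, 5 to 7 members were higher and 10 to 13 lower with shMed1 #2, 4 to 5 higher and 8 to 10 lower with shMed1 #4, and 8 to 11 were called with both. Leaving out 1 library also gave 1 to 3 other receptor tyrosine kinases called with shMed1 #2 (2 with all libraries) and 1 to 2 with shMed1 #4 (1 with all), 5 to 9 negative regulators called with shMed1 #4 (8 with all), and, between shMed1 #4 and shMed1 #2, 5 to 9 adaptors (9 with all) and 4 to 7 negative regulators (7 with all). Other receptor tyrosine kinases called with shMed1 #2 were 1 with library size alone and 1 with DESeq2; with no filter they were 2 with shMed1 #4 and 2 between shMed1 #4 and shMed1 #2, where 1 was called in each. DESeq2 called 4 other ligands (9 with edgeR) and 4 negative regulators (7 with edgeR) between shMed1 #4 and shMed1 #2. The cause of these shifts was not tested.

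The replicate numbers did not pair the samples: correlations of deviations between same-numbered samples ran between -0.0401 and 0.0371. With the replicate block 5892 genes were called with shMed1 #2, 3786 with shMed1 #4 and 3461 between shMed1 #4 and shMed1 #2, against 5947, 3836 and 3540 without it, and the counts of members called were the same. The planned stricter filter left the same 13611 genes, and a filter of 5 CPM, added after seeing the data, left 11076. The 5 highest levels kept their order with the longest transcript as length. Depth limits the 18 members below the filter, and the 3 samples a group limit all tests.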
